A study of Mus musculus with 10 samples.

Results

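ZFP266 peaks in first introns were defined as those DamID-seq peaks of 1 deposited list whose midpoint fell in the first intron of a protein-coding gene, in the longest curated RefSeq transcript of that gene, and more than 1000 bp from every curated transcript start. There were 2946 such peaks among 15119 in all, 19.5% of the list (exact Clopper-Pearson 95% CI 18.9 to 20.1%). A further 3021 peaks (20%) met the same distance rule in later introns of these transcripts, and 7540 (49.9%) met it outside every curated transcript. Intervals of percentages are of that exact kind, those of densities are exact Poisson intervals, and all intervals are at 95% and cover counting error only.

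ZFP266 is a zinc finger protein with a KRAB domain, a domain that recruits the co-repressor TRIM28 and, through it, enzymes that close chromatin. In DamID-seq the protein is fused to Dam, a bacterial enzyme that adds a methyl group to GATC sequences close to where the fusion sits, and DpnI then cuts only at methylated GATC. First introns begin just downstream of the promoter, are on average longer than other introns and often hold enhancers. B1 SINEs are short repeats of the mouse genome, frequent in gene-rich DNA, and AP-1 is the dimer of FOS and JUN proteins that occupies many fibroblast enhancers.

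Mouse embryonic fibroblasts (MEFs) of strain 129 received by nucleofection either the plasmid PGK-mO-Dam, which makes Dam only (5 samples), or PGK-mO-Dam-Zfp266, which makes Dam-ZFP266 (5 samples). Both drive mOrange from the PGK promoter as the upstream reading frame, and Dam or its fusion is made only where translation starts again downstream of it. Transfected cells were sorted 48 h after nucleofection. The labels name mOrange as the marker of the sort, and the methods of the study name GFP. The fusion protein came from a plasmid on top of the cells' own ZFP266, so binding at its natural level was not measured. The peaks compare Dam-ZFP266 with Dam only over all 10 samples, so neither a value per sample nor a spread between replicates can be given, and the read depth is unknown.

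All 15119 peaks began and ended 2 bases into a GATC of GRCm38.p6, so each is a run of whole fragments between GATC sites. The first-intron peaks had a median length of 1764 bp (quartiles 1159 and 2654 bp), and 51.4% of them were a single fragment. Their median signal value was 0.867 (quartiles 0.714 and 1.03), on the peak caller's own scale, and their median −log10 q-value was 1.33. Of them, 691 (23.5%; 95% CI 21.9 to 25%) were strong, which here means a signal value above 1 at an FDR below 0.05, against 26.4% of all listed peaks. With the FDR limit alone the shares were 52.6% of first-intron peaks and 52.5% of all listed peaks. Later-intron peaks had a median signal value of 0.884, and the difference, first minus later, was -0.0167 (interval -0.0325 to -0.000897). First-intron peaks were thus not stronger than the other peaks of the list, and the comparisons below concern their number and their sequence.

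The distance rule kept out 152 peaks that lay in a first intron but within 1000 bp of a transcript start. Just inside the limit were a peak in Slc25a25, a mitochondrial carrier gene, at chr2:32429820-32430480, 1001 bp from the start with a signal value of 1.08, and one in Arhgap10, a GTPase-activating protein gene, at chr8:77450174-77451971, at 1017 bp with 1.18. The first intron of Arhgap10 is 0.197 kb long, so most of that peak of 1798 bp lay outside it. Just outside it were a peak in Zfp874a at chr13:67450275-67450977, at 998 bp with 1.48, and one in Bcl3 at chr7:19821483-19822034, at 997 bp with 0.829.

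First introns more than 1000 bp from any transcript start made up 204.5 Mb, which is 7.72% of the ungapped genome, and held 19.5% of the peaks. The share of peaks was 2.52 times the share of bases (interval 2.43 to 2.62). Later introns under the same rule made up 24.6% of the genome and held 20% of the peaks, a ratio of 0.812. There were 14.4 peaks per Mb in first introns (13.9 to 14.9), 4.64 in later introns (4.47 to 4.80) and 4.75 outside transcripts (4.64 to 4.86). The density in first introns was thus 3.11 times that in later introns (2.95 to 3.27) and 3.03 times that outside transcripts. GATC sites, without which no peak can be called, were about as frequent in both kinds of intron, at 2.38 per kb in first and 2.35 per kb in later introns.

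Every chromosome with intronic peaks had the higher density in first introns. The ratio was above 1 on 20 of 20 chromosomes, with a median of 3.19, from 2.24 on chromosome 17 to 4.43 on the X chromosome. On the X both densities were low, 9.19 peaks per Mb in first and 2.08 in later introns, whereas autosomes had 12.1 to 18.4 peaks per Mb in first introns. The Y chromosome held 5 peaks, none of them in an intron counted here.

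Density was highest in intron 1 and lowest from intron 7 on. After 14.4 peaks per Mb in intron 1 there were 7.87 in intron 2 (7.40 to 8.36), 5.62 in intron 3, 4.47 in intron 4, 4.81 in intron 5 and 3.32 in intron 6. From intron 7 on there were 2.91 (2.71 to 3.12). With each first intron divided into 5 equal parts, density was 16.3 peaks per Mb in the part nearest the start, 15.9, 15.1 and 13.9 in the following parts, and 11.1 in the last. Peaks were thus spread over the whole intron, with fewest in the part next to exon 2.

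Later introns lie farther from the start, so both were compared at the same distance from the start of their own transcript. Between 1 and 5 kb there were 17.2 peaks per Mb in first and 6.55 in later introns, a ratio of 2.63 (2.20 to 3.16). The ratio was 3.44 at 5 to 10 kb and 4.48 (3.88 to 5.17) at 10 to 20 kb, where first introns had 18.9 peaks per Mb and later introns 4.21. Beyond that it became smaller, 2.89 at 20 to 50 kb, 1.93 at 50 to 100 kb and 1.26 (1.06 to 1.5) past 100 kb. Density in first introns dropped to 4.94 peaks per Mb past 100 kb, close to the 3.91 of later introns. Later introns ranged from 3.91 to 6.55 peaks per Mb over these distances.

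By distance to the nearest start of any transcript, first introns were again the densest, and up to 50 kb sequence outside transcripts lay between the kinds of intron. At 1 to 5 kb the densities were 16.8 peaks per Mb in first introns, 10.8 outside transcripts and 6.64 in later introns. At 10 to 20 kb they were 18.1, 7.91 and 4.71, and at 50 to 100 kb 9.61, 5.00 and 5.32. The median first-intron peak lay 12082 bp from the nearest start, with quartiles of 5054 and 26524 bp, against a median of 35559 bp for later-intron peaks. Of the first-intron peaks, 601 (20.4%) lay nearer to another transcript start than to that of their own transcript.

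Intron length was compared in the same way. First introns of 20 to 50 kb were the most densely covered class, with 1107 peaks and 22.0 per Mb (20.8 to 23.4), against 6.50 in later introns of that length, a ratio of 3.39. For introns of 5 to 10 kb the values were 14.7 and 3.90, and for 10 to 20 kb 18.4 and 5.57. Introns above 100 kb had 7.41 and 4.47 peaks per Mb, the lowest ratio at 1.66 (1.45 to 1.89). The highest ratio, 5.26 (3.38 to 7.88), came from introns under 2 kb, where only 27 first-intron peaks were counted.

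Of 14331 genes with first-intron bases left under the rule, 1639 (11.4%) had at least 1 first-intron peak. The share rose with the length of the intron, from 0.57% of genes with under 1 kb to 9.01% at 5 to 10 kb, 35.7% at 20 to 50 kb and 49.5% above 100 kb. Genes with a peak had a median of 24.2 kb of first intron and genes without one 3.21 kb. Most of the 1639 had 1 peak (1047 genes) or 2 (298), while 294 genes with 3 or more held 1303 of the 2946 peaks. Peaks in first introns only were found in 1212 genes, in later introns only in 1312 genes and in both in 427 genes.

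Introns were also compared within each gene, a comparison added after seeing the data. The 2640 genes with bases of both kinds and a peak in either had 5449 intronic peaks, of which 2852 were in first introns. If the peaks of each gene had been shared out by bases, 1799 would have been, so there were 1.59 times as many. Stratified by gene, the density ratio was 3.12, close to the 3.11 of the pooled bases. First introns were the denser kind in 1512 of these genes and later introns in 1128. Only 427 genes had peaks in both kinds, so in most genes the denser kind was the only one with a peak.

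The 12 genes with the most first-intron peaks were led by Sik3, which codes for a salt-inducible kinase. Intron lengths of single genes are given whole, while their peaks per Mb are over the usable bases alone, those more than 1000 bp from any transcript start, outside assembly gaps and not in a shorter first intron of another gene. Its first intron of 110.1 kb (chr9:46013131-46123216) held 18 peaks, 165 per Mb, while all its later introns held 2. Signal values there ran from 0.622 to 1.32, and 7 of the 18 peaks were strong. An almost continuous run of 8 of them filled the stretch from chr9:46030410 to chr9:46051743, with short gaps between most of them. Tspan5, a tetraspanin gene, followed with 15 peaks in 125.7 kb and none in its later introns. The highest signal values, 1.48 and 1.46, stood near opposite ends of the intron, 12197 and 124784 bp from the start.

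Trim24 stood out among these genes for density and signal. It codes for a chromatin co-regulator of the same protein family as TRIM28. Its first intron (chr6:37871475-37903532) is 32.06 kb long and held 12 peaks, 404 per Mb of its 29720 usable bases, and there were none in its later introns. In order from the start, their signal values were 2.07, 1.08, 1.65, 1.28, 1.09, 0.992, 0.989, 1.48, 1.02, 1.07, 1.24 and 0.955. Of the 12, 9 were strong, against 26.4% of all listed peaks. B1 SINEs were in 5 of them and AP-1 motifs in 3.

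Efna5, an ephrin ligand gene, had 12 peaks in 229.9 kb, 9 of them at least 140346 bp from the start. Ext1, whose enzyme builds heparan sulfate chains, had 12 in 236.8 kb. Lamc1, the laminin gamma 1 gene, had 10 in 69.43 kb, 7 of which held a B1 SINE. Smad3, which carries TGF-beta signals to the nucleus, had 10 in 89.55 kb, only 1 of them with a B1 SINE. Trio, a guanine nucleotide exchange factor, had 9 in 106 kb.

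The other genes of the 12 were Maml2, a coactivator of Notch, with 10 peaks, Rbms1, an RNA-binding protein gene, with 10, Utrn, the gene of the dystrophin relative utrophin, with 10, and the potassium channel subunit gene Kcnab1 with 9. Trim24 had the shortest first intron of the 12 genes. Later introns of Ext1, Efna5, Tspan5, Trim24, Maml2 and Trio held no peak, and the largest number there was 4, in Kcnab1.

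By density, the 5 leading genes with 3 or more peaks had short or medium first introns. Numa1, a gene of the mitotic spindle pole, had 3 peaks in 7.41 kb (459 per Mb of its 6536 usable bases), and all 3 were strong. The histone deacetylase gene Hdac2 had 4 peaks in 10.32 kb (417 per Mb of its usable bases), with neither a B1 SINE nor an AP-1 motif in any of them. Trim24 came next, and then Sec24b, which codes for a coat protein of transport vesicles, with 7 peaks in 19.12 kb (379 per Mb of its usable bases). Tcea1, a transcription elongation factor gene, had 3 in 9.493 kb (369 per Mb of its 8141 usable bases).

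Among single peaks the highest signal value was 2.33, in the first intron of Rad23b, a gene of nucleotide excision repair, at chr4:55359567-55362042. This peak was a single fragment with a −log10 q-value of 5.85, the highest of all first-intron peaks. The next were in Trim24 (2.07), in the myelin gene Mbp (1.91, chr18:82490011-82493522) and in Lman1l (1.89, chr9:57618450-57618933). Peaks of Sorbs2, which codes for an actin-linked adaptor, Rell1, Lamc1, the cilium gene Drc1, the vesicle traffic gene Nbea and Tmem40 had between 1.71 and 1.86. Of these 10 peaks, 6 held a B1 SINE and 5 an AP-1 motif, and 3, in Lman1l, Sorbs2 and Nbea, held neither. The peak in Sorbs2 lay farthest from the start of its own transcript, at 98518 bp.

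Those signal values were far below those at Zfp266 itself, whose sequence the plasmid carries. The 5 peaks with their midpoint in that gene had signal values from 5.24 to 8.66. Of these, 4 counted as later-intron peaks, and none was a first-intron peak.

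The longest first-intron peak was not a long stretch of signal. At chr9:13323226-13415742 in Maml2 it spanned 92517 bp, but 90000 of them were an assembly gap, and it consisted of 3 fragments. Only 2 first-intron peaks held gap bases. The next longest were in Tent4a, a poly(A) polymerase gene, with 10640 bp in 7 fragments (chr13:69521529-69532168), and in Polk, the DNA polymerase kappa gene, with 10028 bp in 12 fragments (chr13:96532766-96542793). Their signal values, 0.658 and 0.355, were below the lower quartile of 0.714.

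B1 SINEs were found in 1232 first-intron peaks (41.8%; 40.0 to 43.6%), against 29.8% of later-intron peaks, 31.0% of peaks outside transcripts and 32.8% of all listed peaks. The difference between first and later introns was 12.1 percentage points (9.65 to 14.5) and had this direction on 20 of 20 chromosomes. It shrank when the distance from the own transcript start was held alike. Between 1 and 5 kb 50.9% of first-intron and 49.0% of later-intron peaks held a B1 SINE, and between 20 and 50 kb 37.1% and 34.2%. From 50 to 100 kb the order was the other way, 20.9% (16.3 to 26.1%) and 30.8% (27.3 to 34.5%), and so it was past 100 kb, 13.4% (8.40 to 20%) and 17.3% (15.1 to 19.6%). With later-intron peaks weighted to the distances of first-intron peaks, a comparison chosen after seeing the data, the difference was 1.00 percentage points. It was 7.33 percentage points for copies of at least 100 bp at 85% identity, 6.53 in the central 500 bp of the peaks and, also chosen after seeing the data, 7.91 among peaks of 1 fragment.

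The B1 content of the introns moved with distance too. B1 SINEs made up 3.04% of first-intron bases at 1 to 5 kb, 1.72% at 20 to 50 kb and 0.656% past 100 kb, and in later introns 3.47%, 2.42% and 0.848%. Over all distances they made up 2.00% of first-intron bases and 3.48% of the bases of first-intron peaks, 1.74 times as much. For later introns this ratio was 1.33, from 1.76% and 2.35%, and outside transcripts it was 2.34. Measured against their zones as a whole, first-intron peaks were thus richer in B1 than later-intron peaks and poorer than peaks outside transcripts. These ratios did not hold distance from the start alike. In first introns both peaks and B1 SINEs were denser at 1 to 5 kb than past 100 kb, and the part of distance in the ratios was not tested.

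Taken copy by copy, 1829 of 31957 B1 SINEs in first introns were met by a peak, 5.72% (5.47 to 5.98%), against 1.46% in later introns and 2.43% outside transcripts. For comparison, peaks covered 2.99%, 0.985% and 0.964% of the bases of these zones. A B1 copy spans more than 1 base and so is met more often than a base is covered. Copies closer to the consensus were met more often. In first introns the share was 4.39% for copies at 70 to 80% identity, 5.92% at 85 to 90% and 7.21% (6.29 to 8.21%) at 95% or more. The share also rose in later introns, from 0.986% to 2.02%. Outside transcripts the share stayed between 1.9% and 1.98% below 90% identity, and was 3.13% at 90 to 95% and 3.28% at 95% or more. The median identity of copies in first introns was 88.9% for those met by a peak and 85.5% for the others. In later introns these medians were farther apart, 90.3% and 85.6%.

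The strand of these copies was not even. Of B1 SINEs in first introns met by a peak, 34.3% (32.1 to 36.5%) had the strand of the gene, against 40.2% (39.7 to 40.8%) of those not met. A copy on the opposite strand was met in 6.25% of cases (5.92 to 6.61%) and one on the strand of the gene in 4.92% (4.55 to 5.31%). In later introns the same shares were 1.56% and 1.34%.

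AP-1 motifs, TGACTCA or TGAGTCA on either strand, went the other way. They were in 39.6% of first-intron peaks, 45.7% of later-intron peaks, 46.8% of peaks outside transcripts and 44.2% of all listed peaks. First minus later introns was -6.17 percentage points (-8.67 to -3.66), and first introns had the higher share on only 3 of 20 chromosomes. Peaks with 2 or more AP-1 motifs made up 11% of first-intron and 16.8% of later-intron peaks. The motif occurred 0.256 times per kb in first-intron peaks and 0.177 times per kb in first introns as a whole, a ratio of 1.44. In later introns the ratio was 2.05 and outside transcripts 2.25. In central windows of 500 bp the shares were 12.9% and 17.0%. Weighted to the same distances from the own transcript start, a comparison added after seeing the data, the difference was -3.17 percentage points.

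The share of first-intron peaks with an AP-1 motif was higher farther from the start of the own transcript, where the share with a B1 SINE was lower. The share with a motif was 35.5% (31.9 to 39.3%) at 1 to 5 kb from the start, 39.9% at 10 to 20 kb and 50.3% (42.0 to 58.6%) past 100 kb. The share with a B1 SINE went over the same distances from 50.9% to 13.4%. Later-intron peaks changed in the same directions, from 38.3% to 47.9% with an AP-1 motif and from 49.0% to 17.3% with a B1 SINE. Signal did not follow: the median signal value was 0.866 at 1 to 5 kb and 0.846 past 100 kb. Median GC content stayed between 42.0% and 43.4%.

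Put together, 25.3% of first-intron peaks had a B1 SINE without an AP-1 motif, 23.1% an AP-1 motif without a B1 SINE, 16.5% both and 35.1% neither. For later-intron peaks the same shares were 16.4%, 32.4%, 13.3% and 37.8%. Among strong first-intron peaks, which are mostly single fragments and so shorter, they were 29.8%, 18.5%, 12% and 39.7%. Longer peaks have more room for either feature, and among peaks of 1 to 2 kb the order of first and later introns was the same, 38.1% and 27.1% with a B1 SINE and 32.9% and 39.8% with an AP-1 motif.

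Differences in the other motifs were smaller than those in the unweighted shares with a B1 SINE or an AP-1 motif. The KLF motif (CCACACCC, CCACGCCC, CCCCACCC or CCCCGCCC) was in 42.2% of first-intron and 40.6% of later-intron peaks, and in 41.9% of all. The SOX motif CCATTGT was in 24.1% and 26.8%, and in 25.4% of all peaks, a difference of first minus later introns of -2.74 percentage points (-4.95 to -0.535). The letters GGAATG, the core of the TEAD motif, were in 62.8% and 65.6%, and in 65.5% of all, a difference of -2.78 percentage points (-5.21 to -0.345). Median GC content was 43.0% and 43.1%, and the median share of repeat-masked bases was 24.7% and 21.9%. A match of letters is a description and does not show that a factor was bound.

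In the peaks of Rad23b and Lamc1 the AP-1 motif stood apart from the B1 SINE closest to the consensus, with 537 bases between them in Rad23b and 346 in Lamc1. The motif is in capitals, with 30 RefSeq bases on each side in lower case. The printed stretches are chr4:55361525-55361591 and chr1:153303507-153303573, on the plus strand of GRCm38.p6. They are shown as examples of peaks that held both features. Of the 10 peaks with the highest signal values, those of Mbp and Tmem40 also held both.
Rad23b AP-1: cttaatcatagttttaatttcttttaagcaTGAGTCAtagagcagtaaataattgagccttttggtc
Lamc1 AP-1: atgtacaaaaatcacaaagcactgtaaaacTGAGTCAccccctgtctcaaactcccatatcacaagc

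Gene lists that fit the cell type were set beside lists for other cells. Of 32 focal adhesion and actin cytoskeleton genes with a usable first intron, 18 (56.2%) had a first-intron peak, against 11.4% of all such genes. Their first introns were long, with a median of 32.3 kb against 4.06 kb, but the density was higher as well, 38.7 peaks per Mb (28.4 to 51.5) against 14.4. Later introns of this list were denser too, with 11.5 peaks per Mb against 4.50, and the ratio of first to later introns was 3.38, against 3.20 over all genes with a usable first intron. Trio had 9 peaks, and Lpp, a focal adhesion gene, and Tns3, a tensin gene, had 4 each.

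Matrix and growth factor genes had densities of the same order as the cytoskeleton list. Collagens and extracellular matrix genes had a peak in 14 of 44 genes and 37.1 peaks per Mb (25 to 53), over first introns with a median of 8.07 kb. Their later introns had 10.8 per Mb, a ratio of 3.42. Lamc1 led with 10, followed by the perlecan gene Hspg2 with 4, Col5a2 with 3 and Col6a3 with 2. In TGF-beta, FGF, PDGF and Wnt signalling, 13 of 33 genes had a peak, at 32.5 per Mb (23.1 to 44.5). Later introns of these genes had 16.2 per Mb, and the ratio of 2.01 was below that of all genes. Smad3 had 10, the BMP receptor gene Bmpr2 and the Wnt receptor gene Ror2 7 each, and the FGF receptor gene Fgfr1 3. Of the 7 peaks in Bmpr2, 6 held a B1 SINE.

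Fibroblast and mesenchyme transcription factors were closer to the average of all genes in density. There 9 of 36 genes had a peak, at 17.1 per Mb (9.58 to 28.2), with 4 in the forkhead factor gene Foxp1 and 2 each in the ETS factor gene Etv6, the forkhead factor gene Foxo1 and Tead1, a TEAD factor gene. Their later introns had 9.74 peaks per Mb, a ratio of 1.76.

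Neuronal adhesion and synapse genes had the lowest density of the lists. Their first introns were the longest of the lists, with a median of 225 kb and 9.41 Mb in all, yet held 13 peaks, 1.38 per Mb (0.736 to 2.36). Of 39 such genes, 8 (20.5%) had one, a higher share than the 11.4% of all genes, over much longer introns. In their later introns the density was 1.33 per Mb, a ratio of 1.04. Among them the cell adhesion gene Negr1 had 3 peaks, and Astn2 and Cntn4 had 1 each. Of the pluripotency list, 2 of 23 genes had a first-intron peak, 1 in the orphan nuclear receptor gene Esrrb and 1 in Tet1, whose enzyme oxidises methylated cytosine, with signal values of 1.08 and 1.02, and the density of 9.71 per Mb rested on 2 peaks (1.18 to 35.1). The lists are descriptions, and their differences from all genes were not tested.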

How the data were processed

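DamID-seq was done on 5 Dam only and 5 Dam-ZFP266 samples. The authors trimmed reads with Cutadapt, aligned them to GRCm38 with BWA, removed mitochondrial and blacklisted reads, used Rsubread to count reads in each DpnII fragment, and used Daim for peak calling; versions are not given in the sources used here. The deposited broadPeak list gives each peak a score up to 1000, a signal value, and a −log10 p-value and −log10 q-value. For peak calling the paper names, as examples, an FDR below 0.05 and a log2 fold change above 1. Whether the signal value is that fold change is not stated. Of the 15119 listed peaks, 3986 had an FDR below 0.05 and a signal value above 1. All 10 samples enter that list, so the depth per sample is unknown and no test was run.

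Curated RefSeq transcripts of GRCm38.p6 gave introns and starts, with the transcript of greatest spliced length per protein-coding gene. Shares of bases used ungapped bases under the same distance rule. B1 SINEs were matches of at least 80 bp at 70% identity or more, found by blastn 2.17.0 with a consensus built from the reference genome. Motifs were exact matches on both strands. Intervals of density ratios were exact and conditional on the total count, those of differences of shares used the normal approximation, and that of the difference of medians combined the intervals of both medians from order statistics. The −log10 p-value was not used. Python 3.11.15, numpy 2.4.6, pandas 2.3.3 and scipy 1.17.1 were used, and the steps were checked on simulated data. Members and gene lists were chosen with earlier results of these data known.

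Named were the 12 genes with most first-intron peaks, the genes of the 10 first-intron peaks with the highest signal value and of the 3 longest, the 5 densest genes with 3 or more peaks, the peaks nearest the 1000 bp limit, and up to 4 genes per list, with ties broken by symbol. Alternatives changed the transcript, the starts, the distance, the peak limits, joining of peaks, the B1 definition and the window.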

Additional observations from a re-analysis of the deposited data

How the results depend on the processing

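Of 37 alternatives, 21 left their value within its interval or, for the count, within 1.5 times, 16 moved it and 0 turned its direction. The count of first-intron peaks ran from 691, the strong peaks (signal value above 1 at an FDR below 0.05), to 3146. The density ratio of first to later introns moved to 3.65 with the whole peak inside the intron and 2.92 with peaks under 1 kb apart joined. It was 3.46 at 5 to 50 kb from the own start. Without the first introns of the 20 genes with the most first-intron peaks it was 2.93, with the later introns of these genes kept. The share of peaks over the share of bases was 2.41 beyond 5 kb from a start, 2.39 with whole peaks, 2.24 for strong peaks and 2.42 with joined peaks. The B1 difference was 7.33 percentage points for 100 bp at 85% identity, 6.53 in the central 500 bp and 8.99 for strong peaks, and the AP-1 difference for strong peaks was -8.84. Chosen after seeing the data, peaks of 1 fragment gave a B1 difference of 7.91, and weighting to the same distances gave 1.00 for B1 and -3.17 for AP-1. The comparison within each gene, AP-1 in peaks of 1 fragment and the median signal value without Zfp266 were also chosen then and gave 3.12, -7.39 and -0.0166. Fewer peaks pass stricter limits, which lowers the count by construction; for the other moves the cause was not tested.

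No paired analysis was possible because the 10 samples enter 1 list without a value per sample, although the labels number replicates 1 to 5 in both groups. For the same reason no replicate was left out. The depth is unknown, a signal value has no stated scale, and a peak can be no shorter than a GATC fragment, so the position of binding within it is not known. The list does not show whether binding at a first intron changes the gene.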
